A study of Mus musculus with 19 samples.

Results

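The 10 genes described here, Clec4f, Vsig4, Timd4, Marco, Cd5l, Cd163, C6, Folr2, Adgre1 and Csf1r, were taken as identity genes of Kupffer cells, the resident macrophages of the liver. Not all of them are restricted to Kupffer cells. The 10 genes were chosen by symbol from the 55836 genes listed in the count table, and all 10 passed the filter on low counts that left 13597 genes. Livers of male wild-type C57BL/6 mice, 8 weeks old at purchase, were sequenced in bulk as 19 libraries, 1 per mouse. Vehicle-gavaged mice numbered 4 on the control diet (CD + Veh) and 5 on the MASH diet (MD + Veh), and 5 mice on each diet received polyethylene (CD + PE and MD + PE). CD is the control diet, which the sample labels call chow, with 10% of its energy as fat. MD is the MASH diet (metabolic dysfunction-associated steatohepatitis), with 40% of its energy as fat, 20% as fructose and 2% cholesterol. Veh is the gavaged vehicle, water with 0.1% Tween 20, and PE is polyethylene particles of 10 to 150 µm in it, at 2 mg per mouse and day over 8 weeks. No agent other than these was given to any group, and all mice were wild type. Mice of 1 group were housed together, so cage and group cannot be told apart.

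Kupffer cells line the liver sinusoids, where they clear particles, bacteria and aged red cells from portal blood. They arise from embryonic precursors that renew themselves in place and depend on the growth factor receptor encoded by Csf1r. When resident cells are lost, as can happen in steatohepatitis, monocytes enter and take up much of the same programme, and Timd4 is among the last genes that such newcomers express. The lineage-determining factor PU.1, encoded by Spi1, opens macrophage enhancers in both.

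The genes lie on 9 chromosomes of GRCm39 in the GENCODE vM39 annotation, and each is protein coding. Clec4f, a galactose-binding lectin restricted to Kupffer cells, spans chr6:83621524-83633169 on the minus strand. Cd5l, a secreted scavenger-receptor protein that supports macrophage survival, spans chr3:87265182-87278380 on the plus strand. Marco, a scavenger receptor for bacteria and inert particles, spans chr1:120402267-120432753 on the minus strand. The 250 bases before the annotated start are printed here for these 3 genes, because Cd5l differed between diets, Clec4f is the reference for the ratios given later, and Marco stood farthest apart in 1 library. Each is written 5′ to 3′ on the strand of its gene, and capitals mark the PU.1 core GAGGAA or its complement TTCCTC. The windows are chr6:83633170-83633419 (minus), chr1:120432754-120433003 (minus) and chr3:87264932-87265181 (plus).
Clec4f: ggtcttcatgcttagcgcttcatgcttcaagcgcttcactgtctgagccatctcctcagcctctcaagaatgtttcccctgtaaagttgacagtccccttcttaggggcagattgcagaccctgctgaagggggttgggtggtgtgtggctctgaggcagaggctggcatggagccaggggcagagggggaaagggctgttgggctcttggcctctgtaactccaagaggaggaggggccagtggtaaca
Marco: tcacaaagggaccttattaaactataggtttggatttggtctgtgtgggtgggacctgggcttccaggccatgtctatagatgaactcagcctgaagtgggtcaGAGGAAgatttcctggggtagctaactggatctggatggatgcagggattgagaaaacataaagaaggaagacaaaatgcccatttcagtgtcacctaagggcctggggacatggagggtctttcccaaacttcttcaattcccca
Cd5l: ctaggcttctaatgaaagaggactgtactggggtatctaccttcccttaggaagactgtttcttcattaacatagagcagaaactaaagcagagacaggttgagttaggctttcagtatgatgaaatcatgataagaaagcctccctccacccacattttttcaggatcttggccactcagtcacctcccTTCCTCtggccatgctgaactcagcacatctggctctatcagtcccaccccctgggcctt
The core was present once each in the windows of Marco and Cd5l, and not in that of Clec4f. On either strand it was found in 6 of the 10 members' windows and in 22.9% of 21770 protein-coding windows of the same length. The letters TGCTGA, part of the element that MAF factors bind, were searched on both strands too, overlap none of the matches above and were found in 3 of the 10 windows and in 14.8% of all. These are matches of letters only, and the libraries do not measure binding.

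Levels were compared between genes as CPM (counts scaled to the effective library size by TMM) per kilobase of the canonical transcript, in CD + Veh. C6, a terminal complement component that hepatocytes also make, was highest, at a median of 69.6 (range 43.1 to 88.1, n = 4). Cd5l at 22.7 (12.9 to 24.2) and Clec4f at 22.4 (14.7 to 24.8) followed and overlapped with each other. Vsig4, the complement receptor CRIg, came next at 8.45 (lowest library 5.60). Marco at 5.29 (1.67 to 11.7), the folate receptor gene Folr2 at 4.29 (2.74 to 4.93) and Csf1r at 4.14 (2.44 to 4.87) overlapped with one another. Adgre1 at 2.43 (1.47 to 2.91), Timd4, a phosphatidylserine receptor, at 2.05 (1.14 to 2.64) and Cd163, the haemoglobin scavenger receptor, at 2.01 (up to 2.56) were lowest and also overlapped. The fewest counts for any member in any library were 19, for Timd4, and the most were 4068, for C6. The defining markers of the cell type were therefore detected in every library.

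One library, CD + PE replicate 2, stood apart for these genes. It held the highest CPM of the 19 libraries for 9 of the 10 members, all but C6, although it was the highest for 8.05% of all 13597 genes tested, within the 3.10% to 8.44% of the single libraries. Marco reached 256 CPM there, 35.8-fold over the median of the other 4 CD + PE libraries, and at most 40.1 in any other library. Adgre1 reached 45.6 CPM against at most 18.5 elsewhere, Csf1r 90.3 against 45.6, and Timd4 24.5 against 8.67. Cd163 was tied with MD + Veh replicate 4 at 12.5 CPM. The rise was therefore unequal among the members, between 1.46-fold for C6 and 35.8-fold for Marco over the other CD + PE libraries. The same library was the highest for 14 of 14 pan-macrophage and leukocyte genes such as Cd68, Lyz2 and C1qa, whose summed level was 1067 CPM there and 197 to 251 in the other CD + PE libraries. It was the highest for 4 of 10 further Kupffer cell genes, 4 of 11 lineage factors, 3 of 13 niche genes and 1 of 8 recruited monocyte genes. The same held for 2 of 4 peritoneal and splenic macrophage genes. Siglec1, a sialic acid receptor of tissue macrophages, reached 12.5 CPM against at most 7.64 elsewhere, and Cd209b rested on 6 counts (0.526 CPM). Prg4, at 77.7 CPM, was not the highest there, and Gata6, at 6.32 CPM, was the lowest of the 19 libraries. Both were present in every library, Prg4 at 51.1 to 93.6 CPM and Gata6 at up to 12.95 CPM. The cells that expressed them were not identified, so they do not measure peritoneal macrophages here. CD + PE replicate 2 was the highest for 2 of 10 sinusoidal endothelial genes, 3 of 8 lymphocyte genes, and none of 8 lipid-associated macrophage, 7 neutrophil, 8 stellate cell or 6 hepatocyte genes. The summed hepatocyte genes were lower there, at 66377 CPM, than in the other CD + PE libraries, at 81448 to 94904. The part of tissue sampling in this library was not tested. Other libraries stood apart for genes of other tissues. Skeletal muscle genes summed to 2720 CPM in MD + Veh replicate 1 and to between 0.31 and 352 CPM elsewhere. Their group median was 114 CPM in MD + Veh, 0.672 in CD + Veh, 1.94 in CD + PE and 0.869 in MD + PE. Intestinal epithelium genes summed to 379 CPM in MD + PE replicate 2 and to at most 133 elsewhere. In MD + PE replicate 2 the intestinal alkaline phosphatase gene Alpi reached 73.1 CPM, against at most 0.956 elsewhere, and bile duct genes, such as Epcam and Krt19, which intestinal epithelium also expresses, summed to 115 CPM against at most 20.5. MD + Veh replicate 1 and MD + PE replicate 2 were then left out as well, and libraries with smaller sums of muscle genes were kept. This gave 4 of 10 members called for MD + Veh against CD + Veh, where 5.17% of genes were called higher. For MD + PE against CD + PE it gave 3 of 10, where 3.41% were. The count of called members is therefore given for each comparison with and without CD + PE replicate 2. In bulk RNA, more cells of a type and more RNA per cell cannot be told apart.

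**Figure D1:**
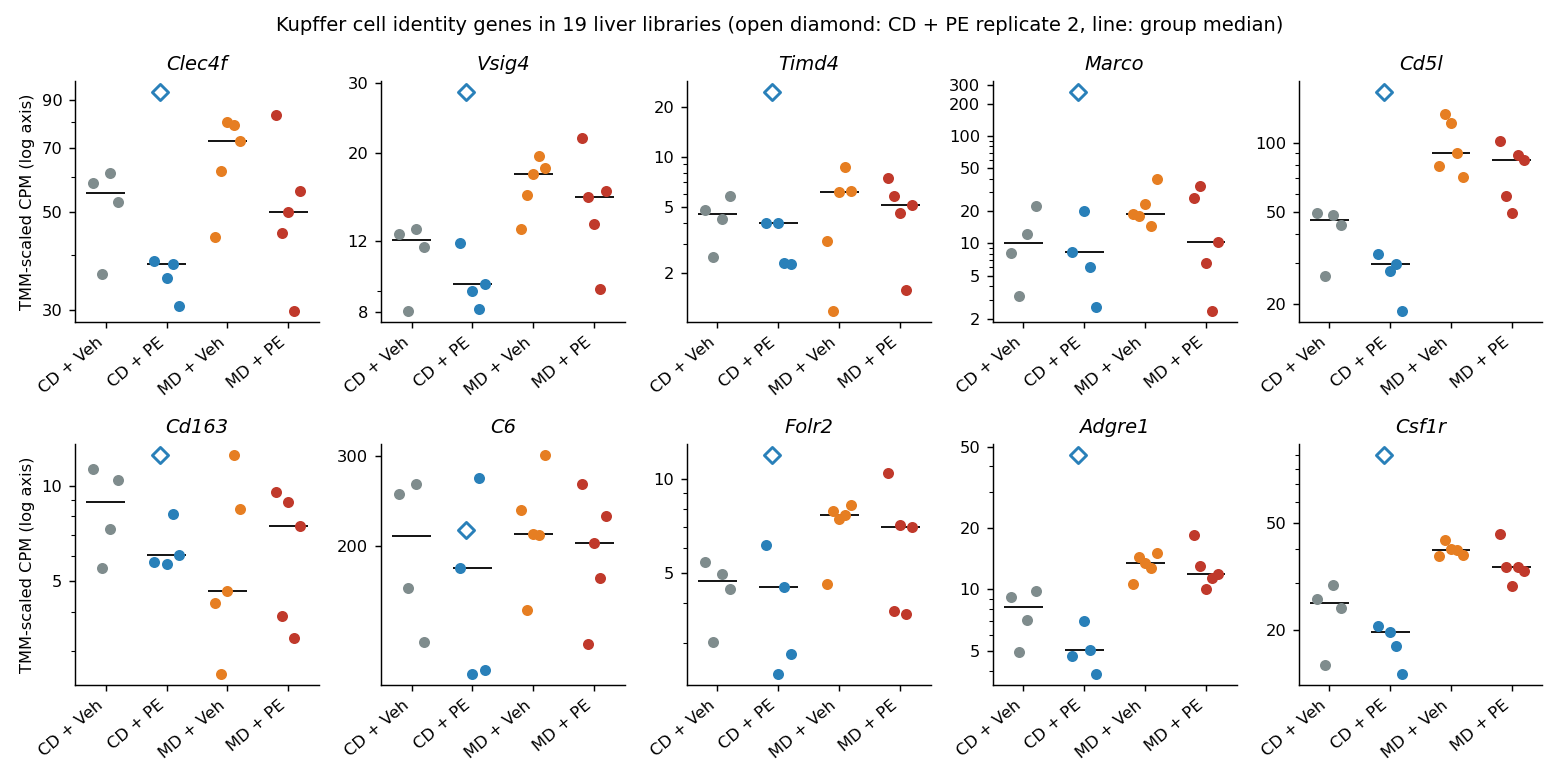
TMM-scaled CPM (log axis) of the 10 members in each of the 19 libraries, with 1 point per mouse and a line at each group's median. The open diamond, CD + PE replicate 2, lies above every other library in all panels but C6, and for Cd163 it is level with an MD + Veh library at 12.5.

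**Figure D2:**
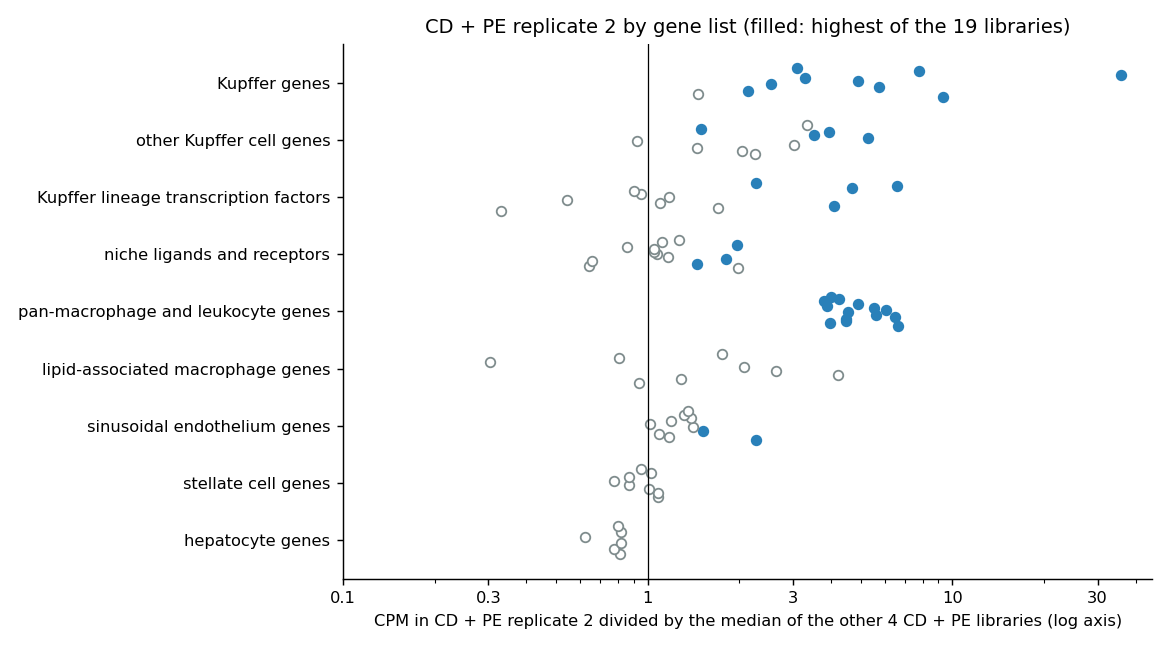
CPM in CD + PE replicate 2 divided by the median of the other 4 CD + PE libraries (log axis), with 1 point per gene and filled points where that library is the highest of 19. All 14 pan-macrophage genes and 9 of 10 Kupffer identity genes are filled, Marco lies farthest right at 35.8, and the 6 hepatocyte genes lie below 1.

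The diet comparison in vehicle-gavaged mice (MD + Veh against CD + Veh) asks what the MASH diet did to these genes without particles. Cd5l showed the largest difference. In CD + Veh it stood at 49.5, 26.4, 48.5 and 44.1 CPM, and in MD + Veh at 79.4, 134, 122, 90.6 and 71.3. Every MD + Veh mouse lay above every CD + Veh mouse. With all 19 libraries the log2 fold change was 1.24 ± 0.480 (SE), and the adjusted p of edgeR's quasi-likelihood test was 0.0932. Without CD + PE replicate 2, which belongs to neither group but adds to the spread that the groups share, the estimate was again 1.24, its SE was 0.242 and its adjusted p was 0.00176. A fit to only these 2 groups gave an adjusted p of 0.00466 (edgeR).

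Csf1r encodes the receptor for the growth factors CSF1 and IL-34. It read 25.9, 14.8, 29.5 and 24.2 CPM in CD + Veh and 37.6, 43.4, 40.2, 39.8 and 38.1 in MD + Veh, with no overlap. Its log2 fold change was 0.76 ± 0.401 with all libraries (adjusted p = 0.223) and 0.75 ± 0.162 without CD + PE replicate 2 (adjusted p = 0.00346, edgeR). Adgre1, which encodes the classical mouse macrophage marker F4/80, read 9.2, 4.94, 7.11 and 9.77 CPM in CD + Veh and 10.6, 14.4, 13.5, 12.7 and 15.1 in MD + Veh. Here too the groups did not overlap. Its log2 fold change was 0.77 ± 0.542 with all libraries (adjusted p = 0.370) and 0.77 ± 0.205 without that library (adjusted p = 0.0150, edgeR).

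Vsig4 also did not overlap, by a narrow margin. It lay between 8.02 and 12.88 CPM in CD + Veh and between 12.93 and 19.7 in MD + Veh, and its log2 fold change of 0.58 ± 0.198 gave an adjusted p of 0.0534 by edgeR without CD + PE replicate 2. Folr2 gave 0.68 ± 0.308 (adjusted p = 0.143), Clec4f 0.37 ± 0.227 (adjusted p = 0.287) and Marco 0.99 ± 0.635 (adjusted p = 0.316) in the same fit. The lowest MD + Veh value of Folr2, 4.63 CPM, was that of replicate 1, and the other 4 lay between 7.43 and 8.27. Timd4 (0.21 ± 0.442) and C6 (0.12 ± 0.275) did not pass either. Cd163 was the only member with a lower estimate, −0.43 ± 0.382 (adjusted p = 0.482). With a covariate for library numbers up to 45 or from 46 on, it was called lower in the same libraries, at −1.19 (adjusted p = 0.0273, edgeR). MD + Veh is the only group with numbers on both sides, so that estimate in effect compares its replicates 1 to 3 with CD + Veh. Cd163 read 4.25, 2.54 and 4.64 CPM in those and 12.5 and 8.42 in MD + Veh replicates 4 and 5. Leaving out single libraries of the 19 gave Cd163 estimates between −0.81 (without MD + Veh replicate 4) and −0.22 (without MD + Veh replicate 2), and it was called in none of these fits. In the fit to all 19 libraries none of these 7 members passed, and their adjusted p lay between 0.220 (Vsig4) and 0.862 (Timd4). Without CD + PE replicate 2, 3 of 10 members were called higher, against 6.17% of 13608 genes tested, and 9 of 10 estimates were positive. Clec4f, which is restricted to Kupffer cells, was not among the 3, and Adgre1 marks macrophages in general. Which macrophages carried the higher values cannot be told from bulk RNA. Missing the call limits does not show that a member differed from those that were called. With all 19 libraries 0 of 10 were called, against 4.74% of 13597. By unadjusted p below 0.05 there was 1 of 10 by edgeR and 1 of 10 by DESeq2, which also called 0. The groups did not overlap for 4 of 10 members, all higher in MD + Veh, against 7.37% of all genes. The members' median log2 fold change was 0.63, where the median over all genes tested was −0.0042.

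The same question in particle-gavaged mice (MD + PE against CD + PE) turns on the library that stood apart. With it, 0 of 10 members were called (1.69% of all genes were called higher), none had an unadjusted p below 0.05 by edgeR or by DESeq2, and 4 estimates were negative. Without it, 4 of 10 were called higher, against 3.59% of genes tested, and all 10 estimates were positive. The omitted library stood apart through high values of these same genes in CD + PE, so its omission raises these estimates by construction. The adjusted p without it do not account for that choice. For Cd5l the 4 other CD + PE libraries read 32.8, 27.9, 29.7 and 18.6 CPM, and the MD + PE libraries 102, 58.5, 49.5, 88.7 and 84.3. Its log2 fold change was 1.49 ± 0.249 (adjusted p = 0.000978, edgeR), and 0.48 ± 0.443 (adjusted p = 0.580) with the library at 166 CPM included. Adgre1 read 4.73, 6.97, 5.02 and 3.85 CPM against 18.5, 12.97, 9.997, 11.4 and 11.9. Its estimate was 1.33 ± 0.217 (adjusted p = 0.000824, edgeR) without and −0.038 ± 0.502 with that library. Csf1r read 20.6, 19.5, 17.4 and 13.6 CPM against 45.6, 34.3, 29.1, 34.4 and 33.04, with 0.99 ± 0.167 (adjusted p = 0.00103, edgeR) without and 0.13 ± 0.375 with it. In these 3 genes the groups did not overlap once the library was left out, as was the case for 4.79% of all genes. Vsig4 passed by little, at 0.65 ± 0.205 (adjusted p = 0.0497, edgeR), and its groups overlapped.

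Marco turned from lower to higher. Its estimate was −1.89 ± 0.944 (adjusted p = 0.256) with CD + PE replicate 2 and 0.78 ± 0.661 (adjusted p = 0.505) without, and it passed in neither fit. Its values were the most scattered of the members, at 2.33 to 34.1 CPM in MD + PE and 2.57 to 19.9 in the other CD + PE libraries. Timd4 also changed sign, from −0.61 ± 0.604 to 0.63 ± 0.464. Clec4f went from 0.15 ± 0.288 to 0.56 ± 0.232 (adjusted p = 0.137) and Folr2 from 0.20 ± 0.364 to 0.69 ± 0.319 (adjusted p = 0.187). Cd163 and C6 stayed within 1 SE of 0 in both fits.

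Stability was examined by leaving out 1 more of the other 18 libraries beside CD + PE replicate 2. All of these fits omit that library, so they do not test the omission itself. Cd5l and Csf1r were called in 18 of 18 such fits in both diet comparisons. Adgre1 was called in 18 of 18 for MD + PE against CD + PE and in 17 of 18 for MD + Veh against CD + Veh, where its highest adjusted p was 0.0510 by edgeR. Vsig4 was called in 4 and 3 of 18. Clec4f was called in 1 of 18 for MD + PE against CD + PE, and Csf1r in 1 of 18 for CD + PE against CD + Veh. The comparisons of diet with and without PE share no library, but they share the estimate of the spread.

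**Figure D3:**
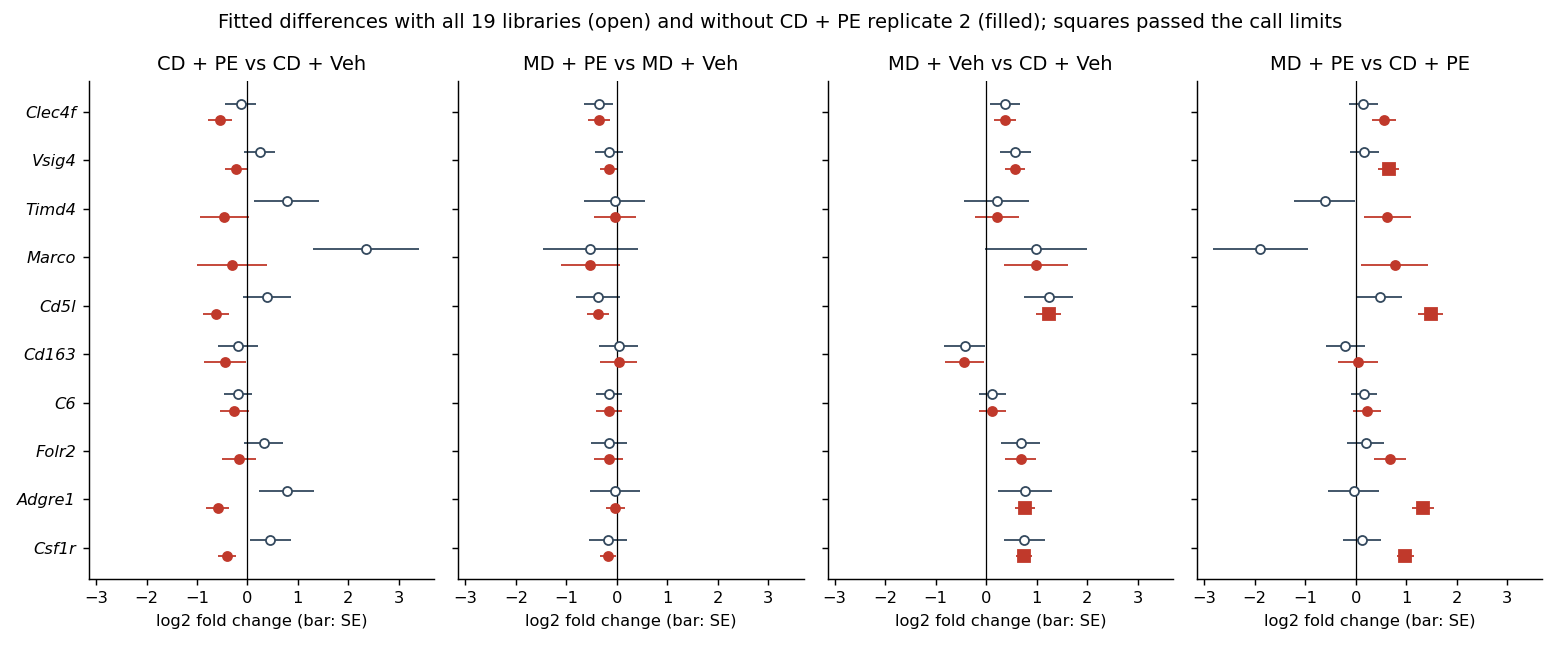
Log2 fold change of each member (edgeR) in the 4 comparisons, with bars of 1 SE, from all 19 libraries (open) and without CD + PE replicate 2 (filled), and with squares where a gene passed the call limits. The squares are Cd5l, Adgre1 and Csf1r in MD + Veh against CD + Veh, and these with Vsig4 in MD + PE against CD + PE, all without that library, and Marco moves farthest between the fits.

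In the particle comparison on the control diet (CD + PE against CD + Veh), 7 of 10 members changed sign with the omission of that library. With all 19 libraries 7 of 10 estimates were positive, the largest that of Marco at 2.35 ± 1.04 (adjusted p = 0.240, edgeR), and 0 of 10 were called, against 1.22% of genes called higher. By unadjusted p below 0.05 there was 1 of 10, Marco, by edgeR and 1 of 10 by DESeq2. Without CD + PE replicate 2, whose high values then no longer raised the CD + PE group, all 10 estimates were negative, between −0.63 and −0.17. Again 0 of 10 were called, against 1.62% of genes called lower. For 4 of the 10 members the unadjusted p was below 0.05. These were Cd5l (−0.63 ± 0.256, adjusted p = 0.192), Adgre1 (−0.59 ± 0.227, adjusted p = 0.164), Clec4f (−0.54 ± 0.242, adjusted p = 0.243) and Csf1r (−0.41 ± 0.174, adjusted p = 0.218). For this and the other counts by unadjusted p the share of all genes is not given. The 1.62% is at the call limits and does not stand beside them, so these counts are a description. Clec4f read 58.1, 36.2, 61.3 and 52.7 CPM in CD + Veh and 38.8, 35.4, 38.2 and 30.6 in those 4 CD + PE mice, with 93.8 in the fifth. The groups overlapped through CD + Veh replicate 2, which was the lowest of its group for 9 of 10 members. This comparison shares the CD + Veh libraries with the first one and the CD + PE libraries with the second.

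On the MASH diet, PE made no difference that passed the test. MD + PE against MD + Veh called 0 of 10 members both with all libraries (0.934% of genes were called lower) and without CD + PE replicate 2 (1.09%), and by edgeR and DESeq2 no member had an unadjusted p below 0.05 with all libraries. The estimates lay between −0.52 (Marco) and 0.036 (Cd163), with 9 of 10 negative and a median of −0.16. Clec4f read 44.05, 61.9, 80.1, 79.02 and 72.5 CPM in MD + Veh mice, and in the MD + PE mice 82.97, 44.8, 50.2, 29.8 and 55.9. Its estimate was −0.36 ± 0.214 without CD + PE replicate 2 (adjusted p = 0.429, edgeR). MD + PE replicate 1 was the highest of its group for 9 of 10 members and replicate 4 the lowest for 6 of 10. The summed lipid-associated macrophage genes, such as Trem2 and Gpnmb, were 302 CPM in replicate 4, against a group median of 105, and its recruited monocyte genes summed to 24.8 CPM against 9.61. Their part in its low Clec4f was not tested.

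The interaction of PE and diet, the test of whether the particle effect differed between diets, called 0 of 10 members in either fit (with all libraries, 0 of 10 by edgeR and 1 of 10 by DESeq2 had an unadjusted p below 0.05), and 0.00735% of all genes were called lower with all libraries. The estimates of 7 of 10 members changed sign between the fits. That of Marco was −2.87 ± 1.39 (adjusted p = 0.579, edgeR) with CD + PE replicate 2 and −0.21 ± 0.908 (adjusted p = 0.969) without. Among the 10 the smallest adjusted p without that library was 0.594, for Adgre1.

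In the fit without CD + PE replicate 2, other genes of the macrophage programme moved with diet alongside the members. The omitted library was the highest of 19 for 14 of 14 pan-macrophage and leukocyte genes and for 4 of 10 further Kupffer cell genes. For such genes its omission raises the estimates in PE mice by construction, and the adjusted p do not account for that choice. Without CD + PE replicate 2, pan-macrophage and leukocyte genes rose in 12 of 14 cases in each diet comparison, with median log2 fold changes of 0.93 in vehicle and 1.07 in PE mice. In that fit 6.17% of all genes were called higher in vehicle mice and 3.59% in PE mice, the shares beside which the counts of the following lists stand. Cd68, a lysosomal protein of phagocytes, rose by 1.16 ± 0.228 (adjusted p = 0.00188) in vehicle mice. With all 19 libraries only Lyz2 was called in vehicle mice, at 1.27 ± 0.412 (adjusted p = 0.0450, edgeR), and 0 of 14 in PE mice. Among 10 further Kupffer cell genes 3 rose in vehicle mice (Cd207, Hmox1 and Il18bp) and 5 in PE mice, led by Kcnj16, a potassium channel gene, at 1.42 ± 0.334 (adjusted p = 0.0104). All of these counts are from the fit without that library, and with it they were 2 and 0.

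Of 11 transcription factors of the lineage, 3 rose and 1 fell in vehicle mice without CD + PE replicate 2. Spi1, which encodes PU.1, rose by 0.65 ± 0.204 (adjusted p = 0.0360), Irf8, its partner factor, by 0.61 ± 0.185 (adjusted p = 0.0304) and Zeb2, needed to keep tissue macrophages distinct, by 0.50 ± 0.164 (adjusted p = 0.0428). Spi1, Irf8 and Zeb2 were also called in PE mice, at 1.03, 0.96 and 0.62. The omitted library was the highest of 19 for 4 of the 11 factors, and for such genes its omission raises the estimates in PE mice. With all 19 libraries 0 of 11 rose in either comparison, and when MD + Veh replicate 1 and MD + PE replicate 2 were left out as well, 0 rose in vehicle mice and 3 in PE mice. Id1, which is also expressed by endothelium and hepatocytes, fell by 1.65 on the log2 scale (SE 0.332, adjusted p = 0.00214) in vehicle mice, where 5.97% of all genes were called lower, and it was called with all 19 libraries too. Of 13 ligands and receptors of the Kupffer cell niche, which include Csf1, Il34, Dll4 and Bmp10, 1 rose in vehicle mice (Acvrl1, 1.07 ± 0.291, adjusted p = 0.0166) and 0 in PE mice. The count in vehicle mice was 1 with all 19 libraries and 0 without the 3 libraries, and a count of 1 in 13 is near the share of all genes. In CD + PE against CD + Veh, Tgfbr2 was lower by −0.49 ± 0.135 (adjusted p = 0.0481) with all libraries and by −0.56 ± 0.139 (adjusted p = 0.0322) without CD + PE replicate 2.

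Of 8 genes of lipid-associated macrophages, which gather around steatotic hepatocytes, 3 rose and 1 fell in vehicle mice, both with all libraries and without CD + PE replicate 2. Gpnmb gave 3.72 ± 1.07 (adjusted p = 0.0232), Lpl 2.42 ± 0.387 (adjusted p = 0.000359) and Itgax 2.06 ± 0.614 (adjusted p = 0.0283), while Cd9, which other liver cells also express, was lower at −0.87 ± 0.282 (adjusted p = 0.0407), all by edgeR without CD + PE replicate 2. Bulk RNA does not show which cells expressed these genes, Lpl among them. In CD + Veh, Gpnmb had 0 to 13 counts and Itgax 3 to 14, so the sizes of their changes rest on low counts. Trem2 (1.20 ± 0.832, adjusted p = 0.357), Mmp12 (2.19 ± 0.849, adjusted p = 0.0870), Cd63 (0.45 ± 0.589) and Spp1 (−0.092 ± 0.284) did not pass. Lpl read 178 CPM in MD + Veh replicate 1, the library with muscle genes, and 38.7 to 69.3 in the other MD + Veh libraries. When MD + Veh replicate 1 and MD + PE replicate 2 were left out as well, Lpl was called at 1.89 ± 0.264 (adjusted p = 0.000201), and Itgax did not pass (adjusted p = 0.0546). Of 5 recruited monocyte genes tested, Ccl2, which encodes a chemokine that attracts monocytes, was called (2.23 ± 0.696, adjusted p = 0.0355), as it was with all 19 libraries. It had only 2 to 6 counts in the CD + Veh libraries, and the cells that expressed it were not identified. The sinusoidal endothelial list had 1 of 10 genes called in vehicle mice (Cdh5) and 2 of 10 in PE mice (Cdh5 and Stab2), 0 and 2 without the 3 libraries, and 0 in both with all 19 libraries. Summed hepatocyte genes were lower on the MASH diet, at 53880 to 68359 CPM in MD + Veh and 75552 to 90428 in CD + Veh. The part of these shifts in the members' CPM was not tested.

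Ratios to Clec4f, counts over counts in the same library, need no scaling and show how the members stood relative to one another. In CD + Veh the ratio of Cd5l to Clec4f was 0.851, 0.727, 0.791 and 0.838, and in MD + Veh it was 1.80, 2.16, 1.53, 1.15 and 0.984. It was higher in 5 of 5 MD + Veh mice than in any CD + Veh mouse, 1.83-fold on the geometric mean. The exact two-sided permutation p was 0.0159, the smallest that 4 against 5 mice allow, and 0.0714 after adjustment over 9 genes. Csf1r showed the same separation, 1.35-fold (adjusted p = 0.0714, exact permutation). Without CD + PE replicate 2 the MD + PE mice exceeded every CD + PE mouse in the Cd5l ratio, 1.98-fold, and in the Adgre1 ratio, 1.79-fold (exact permutation, adjusted p = 0.0714 for each). With it, those values were 1.66-fold and 1.40-fold, with adjusted p of 0.429 and 0.625 (exact permutation). No ratio passed the adjustment in any of the 4 comparisons, in either set of libraries.

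In vehicle mice the ratio of Cd163 to Clec4f gave the lowest estimate of the 9 for MD + Veh against CD + Veh, and it did not pass the adjustment. The median was 0.0964 in MD + Veh and 0.173 in CD + Veh, 0.517-fold on the geometric mean (exact permutation p = 0.0635, adjusted 0.0952). In CD + PE replicate 2 the ratio of Marco to Clec4f was 2.73, where the other 18 libraries lay between 0.0783 and 0.761. The ratios of Timd4 (0.261 against at most 0.130) and Adgre1 (0.486 against at most 0.382) were also the highest of 19 there. Those of Vsig4, Cd163, Folr2, Cd5l and Csf1r lay within the range of the other 18, and that of C6, at 2.29, lay just below it.

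**Figure D4:**
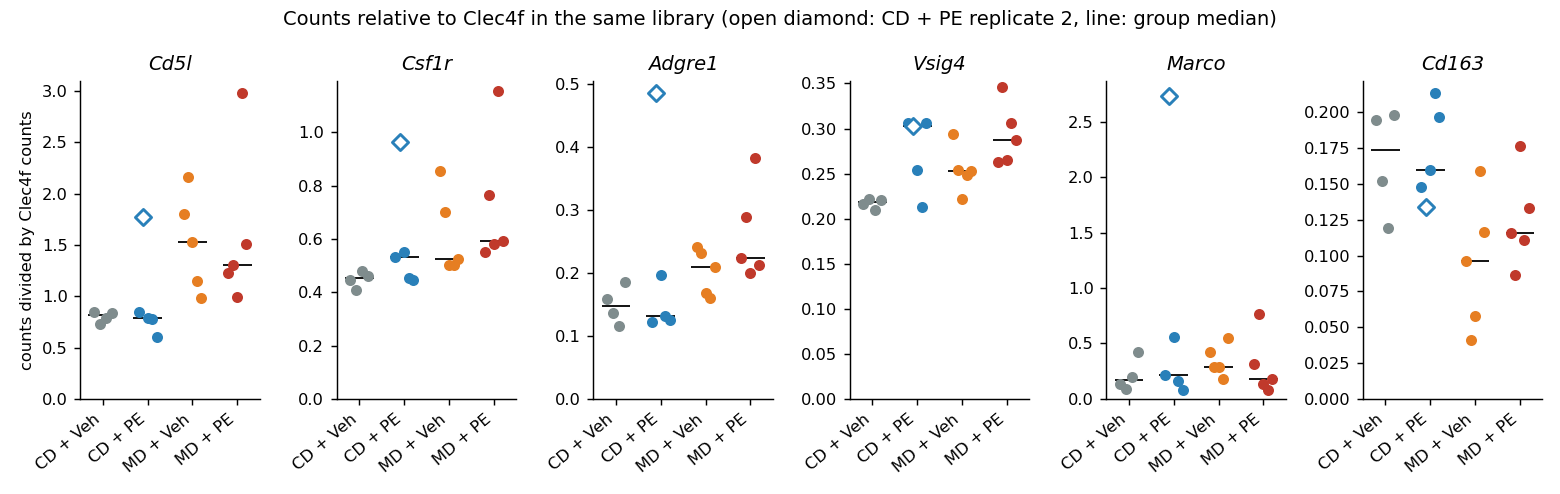
Counts of 6 members divided by Clec4f counts of the same library (linear axes from 0), with 1 point per mouse and a line at each group's median. Cd5l and Csf1r separate MD + Veh from CD + Veh, Marco in CD + PE replicate 2 (open diamond) lies at 2.73, and MD + PE replicate 4 has the highest Cd5l ratio at 2.98.

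Across mice the members rose and fell with Clec4f. After removal of each group's mean, log2 CPM of 8 of 9 genes correlated with that of Clec4f over the 19 libraries (permutation test, values shuffled within groups, adjusted over 9 genes). The Pearson r ranged from 0.467 for C6 (Spearman rho 0.446, adjusted permutation p = 0.0787 and 0.0757) to 0.943 for Vsig4 (rho 0.916, adjusted permutation p = 0.00054 and 0.00045). Folr2 gave an r of 0.886 (rho 0.760) and Timd4 0.825 (rho 0.804). Without CD + PE replicate 2 the r of Vsig4 was 0.905, and 7 of 9 genes passed by Pearson and 6 by Spearman, with the r of Cd5l at 0.437 (adjusted permutation p = 0.119). When CD + PE replicate 2 and MD + PE replicate 4, whose Clec4f residuals were most extreme, were both left out, 5 of 9 passed by Pearson and 6 by Spearman. The 5 were Vsig4 (r = 0.855), Folr2 (0.778), Csf1r (0.713), Cd5l (0.683) and Adgre1 (0.657). The relation of Marco, with r falling from 0.770 to 0.365 (adjusted permutation p = 0.177), rested on those libraries. Cd163 no longer passed, at an r of 0.564 against 0.685 before (adjusted permutation p = 0.0728). Timd4 no longer passed by Pearson (r = 0.555, adjusted permutation p = 0.0621) but did by Spearman (rho 0.723, adjusted permutation p = 0.0107). Within 1 group there were at most 5 mice, too few for a correlation of its own.

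Outside the members, the 6 genes whose residual log2 CPM followed Clec4f most closely over the 19 libraries, of 12430 compared, were Gbp2b (r = 0.876), Wfdc17 (0.853), Adgre4 (0.850), Fcna (0.846), B2m (0.839) and Cfp (0.831). Without CD + PE replicate 2 only Fcna, the ficolin A gene of Kupffer cells, was still among the 6, at 0.875. The points share each library's depth and composition, and these values are a description.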

How the data were processed

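Bulk liver RNA of 19 mice was sequenced as poly(A) libraries. The authors trimmed reads with fastp 0.23.4, quantified them with Salmon 1.10.3 on the GENCODE transcriptome of GRCm39 and collapsed transcripts into genes using tximport. The deposited values are the authors' estimated counts per gene, held as whole numbers, without normalization or filter, with every mouse separate. Reads are shared among similar transcripts by estimation, so genes with close copies can exchange counts. Libraries held from 10398820 up to 15456729 counts, fewer in both PE groups, and intervals were not needed because every member was counted in every library. Groups came from the sample titles.

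Counts were rounded and tested in R 4.3.3 with edgeR 4.0.16 (TMM, filterByExpr by group, 1 coefficient per group, quasi-likelihood F test, all 19 libraries), and DESeq2 1.42.0 as an alternative. A call needed an adjusted p (Benjamini-Hochberg, over every tested gene) under 0.05 with a log2 change of 0.38 or more in size, as in the study's methods. SE is the log2 fold change divided by the square root of F. Ratios were compared by exact permutation tests and correlations by 100000 permutations. Promoter windows were read from GRCm39 with GENCODE vM39. Overlapping genes on the other strand are annotated at Cd163, Folr2 and Csf1r. The test was checked on simulated data. Alternatives were RLE normalization, DESeq2, no filter, a stricter filter (10 or more counts throughout 1 group, mean CPM of 1 or more), no minimum fold change, fits to 2 groups alone, replicate numbers as a block, a covariate for library numbers from 46, each library left out, and 3 libraries left out together. Robust dispersion, the alternatives combined with the omission of CD + PE replicate 2, and the ratios were chosen after seeing the data.

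The members and gene lists were chosen with earlier results of these data known. Named genes are the 10 members, called members of the other lists (at most 4 per list by size of the log2 fold change), and the 6 genes most like Clec4f. Alpi, the peritoneal and splenic macrophage genes and the lipid-associated macrophage genes that were not called were named after their values were seen. Genes listed to show what a list holds were not chosen by the rule. The paper's spatial, qPCR and histological data were not analysed here.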

Additional observations from a re-analysis of the deposited data

Results flagged for a closer look

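Among 40 pairs of member and group, 8 had 1 library far from the others by Dixon's criterion, which chance meets in about 1 in 20 groups. CD + PE replicate 2 was the high library in 7 of them, at 93.8 CPM for Clec4f, 28.4 for Vsig4, 24.5 for Timd4, 256 for Marco, 166 for Cd5l, 45.6 for Adgre1 and 90.3 for Csf1r. The remaining case was Folr2 in MD + Veh replicate 1, which was low at 4.63 CPM. These genes are read from the same library and are not independent.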

How the results depend on the processing

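With all 19 libraries 0 of 10 members were called in any comparison, and this count was the same under DESeq2, RLE normalization, either filter, no minimum fold change, robust dispersion and the replicate block. It moved in both diet comparisons. For MD + Veh against CD + Veh it was 5 with only the 2 groups compared (Vsig4, Cd5l, Folr2, Adgre1 and Csf1r), 4 without CD + PE replicate 2, MD + Veh replicate 1 and MD + PE replicate 2, and 1 with the library number covariate (Cd163, lower at −1.19). That covariate is estimated from MD + Veh alone, the only group on both sides of its division. Leaving out single libraries gave 0 to 3, with 3 only without CD + PE replicate 2. For MD + PE against CD + PE it was 3 without the 3 libraries and 0 to 4 leaving out single libraries, with 4 only without CD + PE replicate 2. With CD + PE replicate 2 left out, DESeq2, RLE normalization and the library number covariate each gave 4 in both comparisons. The replicate block gave 3 in both. With the covariate, the 4 for MD + Veh against CD + Veh included Cd163, which was called lower. Leaving out 1 more library beside CD + PE replicate 2 gave 2 to 4 and 3 to 5. For CD + PE against CD + Veh these fits gave 0 to 1.

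Estimates for CD + PE against CD + Veh turned negative without CD + PE replicate 2, and the lowest and highest values over single libraries left out were −0.23 and 0.40 for Vsig4, −0.46 and 1.02 for Timd4, −0.31 and 2.92 for Marco, −0.63 and 0.61 for Cd5l, −0.17 and 0.51 for Folr2, −0.59 and 1.01 for Adgre1 and −0.41 and 0.65 for Csf1r. Without the 3 libraries they were −0.23, −0.46, −0.32, −0.63, −0.17, −0.59 and −0.41 in that order, and with the covariate Vsig4 was −0.049 and Timd4 −0.32. For MD + PE against CD + PE the ranges were −0.072 to 0.56 for Clec4f, −0.84 to 0.63 for Timd4, −2.37 to 0.78 for Marco, −0.38 to 0.049 for Cd163, −0.048 to 0.69 for Folr2, −0.27 to 1.33 for Adgre1 and −0.068 to 0.99 for Csf1r. Without the 3 libraries Clec4f was 0.62, Folr2 0.84, Timd4 0.57, Marco 0.29, Cd163 0.20 and Adgre1 1.34. For MD + Veh against CD + Veh the ranges were −0.073 to 0.47 for Timd4 and −0.027 to 0.28 for C6, and the covariate gave −0.33 and −0.032. The cause was not tested. All genes tested moved by under 0.03 in the median under every scaling.

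The labels share replicate numbers, but over 27 pairs of libraries with 1 number the residuals had a median correlation of 0.0293, above 0.1 in 6, so the libraries were treated as unpaired. With the replicate block the counts were 0, and Adgre1 in MD + PE against CD + PE was 0.32. The number of genes that correlated with Clec4f was 8, 9 without removal of group means, 7 without CD + PE replicate 2 and 5 without the 2 farthest libraries. Timd4, with 19 counts in 1 library, was the least precise member by depth.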
